A study of Mus musculus with 2 samples.

Results

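Voltage-gated sodium channels were described in the heart of 14-day-old mice through 8 of their subunit genes, chosen by symbol from a list of pore and beta subunit genes. Scn4a, Scn1a, Scn3a, Scn7a and Scn10a encode pore subunits, and Scn2b, Scn3b and Scn4b encode beta subunits. The annotation holds 55536 genes, of which 14 carry a symbol of this family. Heart tissue came from male B6CASTF1/J mice, the hybrid offspring of a cross between C57BL/6J and CAST/EiJ, and was sequenced as total RNA from 300 ng per library. The 2 libraries formed 1 group, with no treated, mutant or other control group. They carry different biosample labels, while the labels name 3 males and give both libraries the same donor label, and pooling of animals is not stated. Any p-value therefore measures the difference between these 2 libraries only.

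The pore subunit is a single long chain of repeated domains around a sodium-selective pore. Its opening gives the fast upstroke of the action potential, and a short loop between the last pair of domains then closes the pore from inside, which is called fast inactivation. Beta subunits are short proteins with a membrane segment and an immunoglobulin-like outer domain that change the gating and surface placement of the pore subunit. Scn4a is known as the skeletal muscle pore gene, Scn1a and Scn3a as brain pore genes and Scn10a as a pore gene of sensory neurons. Scn7a encodes a divergent member known as a sensor of sodium level rather than a channel opened by voltage.

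The inactivation gate is shown first, because it sets Scn7a, the member with the highest level, apart in sequence from Scn4a and Scn10a, the other pore genes printed. Each line gives 45 coding bases, 5′ to 3′ on the coding strand, with the 9 bases of the inactivation motif in capitals.
Scn4a: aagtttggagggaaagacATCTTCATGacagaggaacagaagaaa
Scn10a: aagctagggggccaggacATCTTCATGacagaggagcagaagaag
Scn7a: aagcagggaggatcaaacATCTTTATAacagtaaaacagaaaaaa

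These stretches lie on the minus strand of mm10 and cross an exon junction, so their ends enclose an intron. That of Scn4a lies at chr11:106322851-106323878 in exons 21 and 22. The stretch of Scn10a lies at chr9:119616763-119617679 in exons 25 and 26 of the transcript Scn10a-202. In Scn10a-201 the ends of these exons at their junction are shifted by 4 bases. The stretch of Scn7a lies at chr2:66680927-66682707 in exons 22 and 23. Counted from 1 at the printed 5′ end with Scn4a as the reference, the motif of Scn10a differs by 0 bases and that of Scn7a by C24T and G27A. Over all 45 bases, Scn7a differs from Scn4a at 13 bases, against 8 for Scn10a.

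The translated coding sequences set Scn7a apart in the same way. Its identity with the other pore members was 43.2% to 51.9%, whereas the other pore members shared 60.4% to 85.3% with each other. The closest pair was Scn1a and Scn3a, at 85.3%. Coding length was 1681 codons for Scn7a, 1841 for Scn4a, 1947 for Scn3a, 1957 for Scn10a and 2009 for Scn1a.

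The beta members are short and unlike each other, with 215 codons for Scn2b, 215 for Scn3b and 228 for Scn4b, and identities of 23.6% to 31.03%. The 60 coding bases that follow the membrane segment of Scn4b are shown, with the stretches of Scn2b and Scn3b that begin where the translated sequences align with it, because Scn4b, the only member past the test between the libraries, is known for the stretch in capitals, whose tail can plug the open pore.
Scn4b: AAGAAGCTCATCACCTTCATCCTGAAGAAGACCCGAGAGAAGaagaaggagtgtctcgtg
Scn2b: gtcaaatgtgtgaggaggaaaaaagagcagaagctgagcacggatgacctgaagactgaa
Scn3b: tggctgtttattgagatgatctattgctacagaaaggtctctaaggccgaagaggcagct
These lie on the plus strand of chromosome 9, at chr9:45149352-45150426 (exons 4 and 5) for Scn4b, chr9:45126194-45126253 (exon 4) for Scn2b and chr9:40282492-40282551 (exon 5) for Scn3b.

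Levels are given in TPM, an abundance in which counts are scaled by transcript length and library size so that genes can be set side by side. The libraries held 39334380 and 46391250 expected counts, and a gene of 2 kb at 1 TPM was backed by 61.2 and 73.3 counts. Markers of heart muscle cells were abundant, as the tissue label requires: all 10 reached 1 TPM in both libraries, led by Myh6, Actc1 and Myl2. Reaching 1 TPM in both libraries was used as detection. By that measure 3 of the 8 members were detected (37.5%), against 11421 of 22028 protein-coding genes (51.8%). The detected members were Scn7a, Scn4a and Scn3a, all pore genes. No beta member reached 1 TPM in either library.

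Scn7a had the highest level of the 8. It stood at 4.33 TPM in replicate 1 and 3.47 in replicate 2, a mean of 3.90 ± 0.608 TPM (SD, n = 2) from 959 and 920 counts. Both libraries lay above both libraries of every other member. Even so, this level was at the 22.4th percentile of detected protein-coding genes. The gene has 1 annotated transcript, at chr2:66673425-66784914, and shared 0.0547% of its 31-base words with transcripts of other genes on the same strand.

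Scn7a is known in Schwann cells and other glia, and the Schwann cell list is given beside it. Of its 9 markers, 4 were detected, and the summed level was 42.03 and 37.3 TPM. The highest were Pmp22 at 30.3 ± 2.34 TPM, Erbb3 at 2.99 ± 0.304 and Mbp at 1.98 ± 0.156. Pmp22 alone gave 31.95 and 28.64 TPM of that sum, while the median of the 9 markers was 1.13 and 0.65 TPM. None of the 9 had 0 counts, and the part of these cells in the level of Scn7a was not tested. In whole tissue, fewer cells of a type and less RNA per cell cannot be told apart.

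Scn4a stood at 3.00 and 2.79 TPM in replicates 1 and 2, a mean of 2.90 ± 0.148, from 293 and 397 counts. Within each library, Scn7a was 1.44-fold (95% exact interval 1.26 to 1.65) and 1.24-fold (1.10 to 1.40) above it. These intervals keep the length of each gene fixed, so they leave out error in the split of counts among its transcripts. Much of the Scn4a value came from a short noncoding model. Scn4a-202, a processed transcript of 443 bases and 2 exons at chr11:106349455-106353288, held 53.8% and 42.6% of the gene's TPM from 17 and 15 counts. It shares 0% of its bases with the exons of Scn4a-201, the coding transcript of 6598 bases, which begins 5′ at position 106349389 on the minus strand.

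The coding transcript held most of the counts, and the larger share of TPM in replicate 2 alone (46.2% and 57.4%). Scn4a-201 took 276 and 382 counts, and stood at 1.39 and 1.60 TPM, a mean of 1.495 ± 0.148. With all counts of each gene divided by its longest protein-coding transcript, Scn4a was at 1.57 ± 0.135 TPM, between Scn7a at 3.90 ± 0.614 and Scn3a at 0.585 ± 0.124. The direction between the libraries also depended on the model: the TPM of the gene was lower in replicate 2, and that of its coding transcript was higher.

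Skeletal muscle markers are given beside Scn4a, and most were below 1 TPM. Of 15 such markers, 1 was detected, Mylpf at 1.47 ± 0.339 TPM, followed by Cacna1s at 0.635 ± 0.0212 and Tnnt3 at 0.37 ± 0.297. The summed level was 2.44 and 3.45 TPM over all 15. Myh2, a fast skeletal myosin, and Myod1 and Pax7, which mark muscle precursors, were at 0 counts in both libraries. The part of skeletal muscle in the level of Scn4a was not tested.

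Scn3a stood at 1.44 and 1.16 TPM, a mean of 1.30 ± 0.198, from 194.53 and 172.75 counts. In the RSEM-style tables, both libraries lay below those of Scn4a and above those of every remaining member. This place above 1 TPM rested on a fragment. Scn3a-203, a model of 365 bases and 4 exons, held 51.2% and 51.8% of the gene's TPM from 5.99 and 5.86 counts in the RSEM-style tables, and 0 counts in both kallisto-style tables. By the kallisto-style tables, Scn3a was at 0.858 and 0.686 TPM, under the detection level. Its value in replicate 2 there lay below those of Scn4b (0.810) and Scn2b (0.703).

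Scn10a was low and even, at 0.20 and 0.18 TPM, a mean of 0.19 ± 0.0141, from 40 and 41 counts. Its interval from counting error was 0.143 to 0.272 TPM in replicate 1 and 0.129 to 0.244 in replicate 2. The transcript assignment was not even. All counts went to Scn10a-202 in replicate 1 and to Scn10a-201 in replicate 2, and in the kallisto-style tables Scn10a-202 held 94.1% and 0% and Scn10a-201 held 0.114% and 100%.

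Scn10a-201 and Scn10a-202 are nearly the same RNA. Of their 28 exons, 23 are identical and 5 differ at an end. Exon 1 of Scn10a-202 is longer by 290 bases. Scn10a-201 has 3 more bases in exon 18, 4 more in exon 25 and 11 more in exon 28, and 4 fewer in exon 26. Words of 31 bases found in no other transcript of the gene made up 0.172% of Scn10a-201 and 5.25% of Scn10a-202. A change of transcript between the libraries was not tested.

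Scn1a was the lowest member, at 0.09 and 0.03 TPM from 6.16 and 7.03 counts. With so few counts the intervals overlapped, from 0.0322 to 0.191 TPM in replicate 1 and from 0.0120 to 0.0615 in replicate 2, and the gene was too low to enter the test between libraries. Its counts were nearly equal while its TPM differed 3-fold. The leading model was the 1690-base Scn1a-206 in replicate 1 (88.8% of TPM) and a mixture of Scn1a-203, Scn1a-201 and Scn1a-205 in replicate 2 (34.2%, 33.8% and 31.9%). Scn10a lay above Scn1a in both libraries.

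Neuronal markers were set beside these neuronal pore genes, and most of the markers were below 1 TPM. Of 13 markers, 3 were detected, Uchl1 at 6.75 ± 1.34 TPM, Stmn2 at 2.36 ± 0.127 and Dbh, which makes noradrenaline, at 1.07 ± 0. The summed level was 11.8 and 10.1 TPM. Chat and Th, which mark autonomic neurons, were at 0 counts in both libraries. The part of neurons in the levels of Scn3a, Scn10a and Scn1a was not tested.

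**Figure D1:**
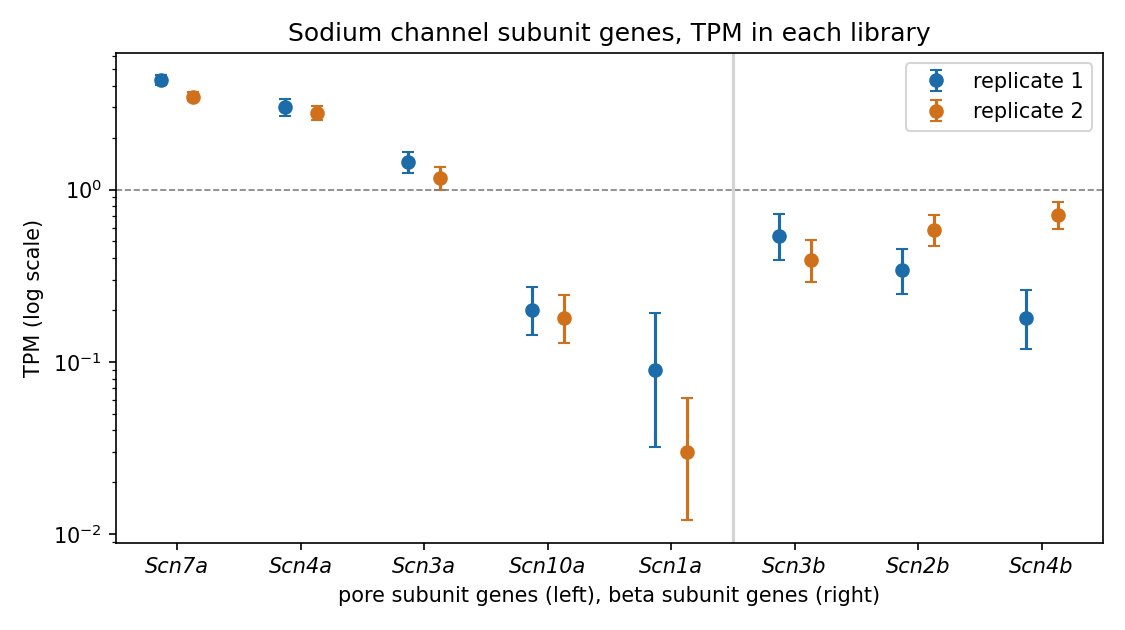
Level in TPM (log axis) of each member in replicate 1 and replicate 2. Bars are exact 95% Poisson intervals of the count with the length of each gene kept fixed, and the dashed line marks 1 TPM. Scn7a, Scn4a and Scn3a sit above the line in both libraries, and the 2 libraries are farthest apart, relative to their intervals, for Scn4b.

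By the mean of the 2 libraries, beta subunit genes lay between Scn3a and Scn10a, and their order was not resolved. Scn3b stood at 0.54 and 0.39 TPM, a mean of 0.465 ± 0.106, from 44 and 53 counts. Scn2b stood at 0.34 and 0.58 TPM, a mean of 0.46 ± 0.170, from 46 and 94 counts. Scn4b stood at 0.18 and 0.71 TPM, a mean of 0.445 ± 0.375, from 27 and 127 counts. Scn3b was the highest of these in replicate 1 and the lowest in replicate 2, and Scn4b the reverse, so the ranges of all 3 beta genes overlapped.

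In the whole order, 4 of 7 neighbouring pairs were apart, meaning that both libraries of one gene lay above both of the other. These were Scn7a over Scn4a, Scn4a over Scn3a, Scn3a over Scn3b and Scn10a over Scn1a. The last pair rested on few counts: Scn10a was 2.22-fold above Scn1a in replicate 1, with an exact 95% interval of 0.983 to 6.73 that includes 1, and 6-fold in replicate 2 (2.66 to 15.8). The pairs Scn3b and Scn2b, Scn2b and Scn4b, and Scn4b and Scn10a were not. Scn4b was 0.90-fold the level of Scn10a in replicate 1 (95% exact interval 0.538 to 1.52) and 3.94-fold in replicate 2 (2.80 to 5.85). Summed over members, pore genes gave 9.06 and 7.63 TPM and beta genes 1.06 and 1.68 TPM.

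The beta genes differed in how many transcripts carried them. Scn4b has 1 annotated transcript and shared 0% of its 31-base words with other genes. Scn2b has 2, of which Scn2b-202 held 82.3% and 81.7% of TPM. Scn3b has 9, and its split changed between the libraries: Scn3b-201 held 22.7% and 60.0%, Scn3b-202 held 38.4% and 30.01%, and the 704-base noncoding Scn3b-205 held 38.9% and 10.03% from 3.87 and 0.88 counts. From protein-coding transcripts alone, Scn3b was at 0.33 and 0.36 TPM, closer together than the gene values. By that measure it was no longer the highest beta gene in replicate 1, where Scn2b was at 0.34 TPM.

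**Figure D2:**
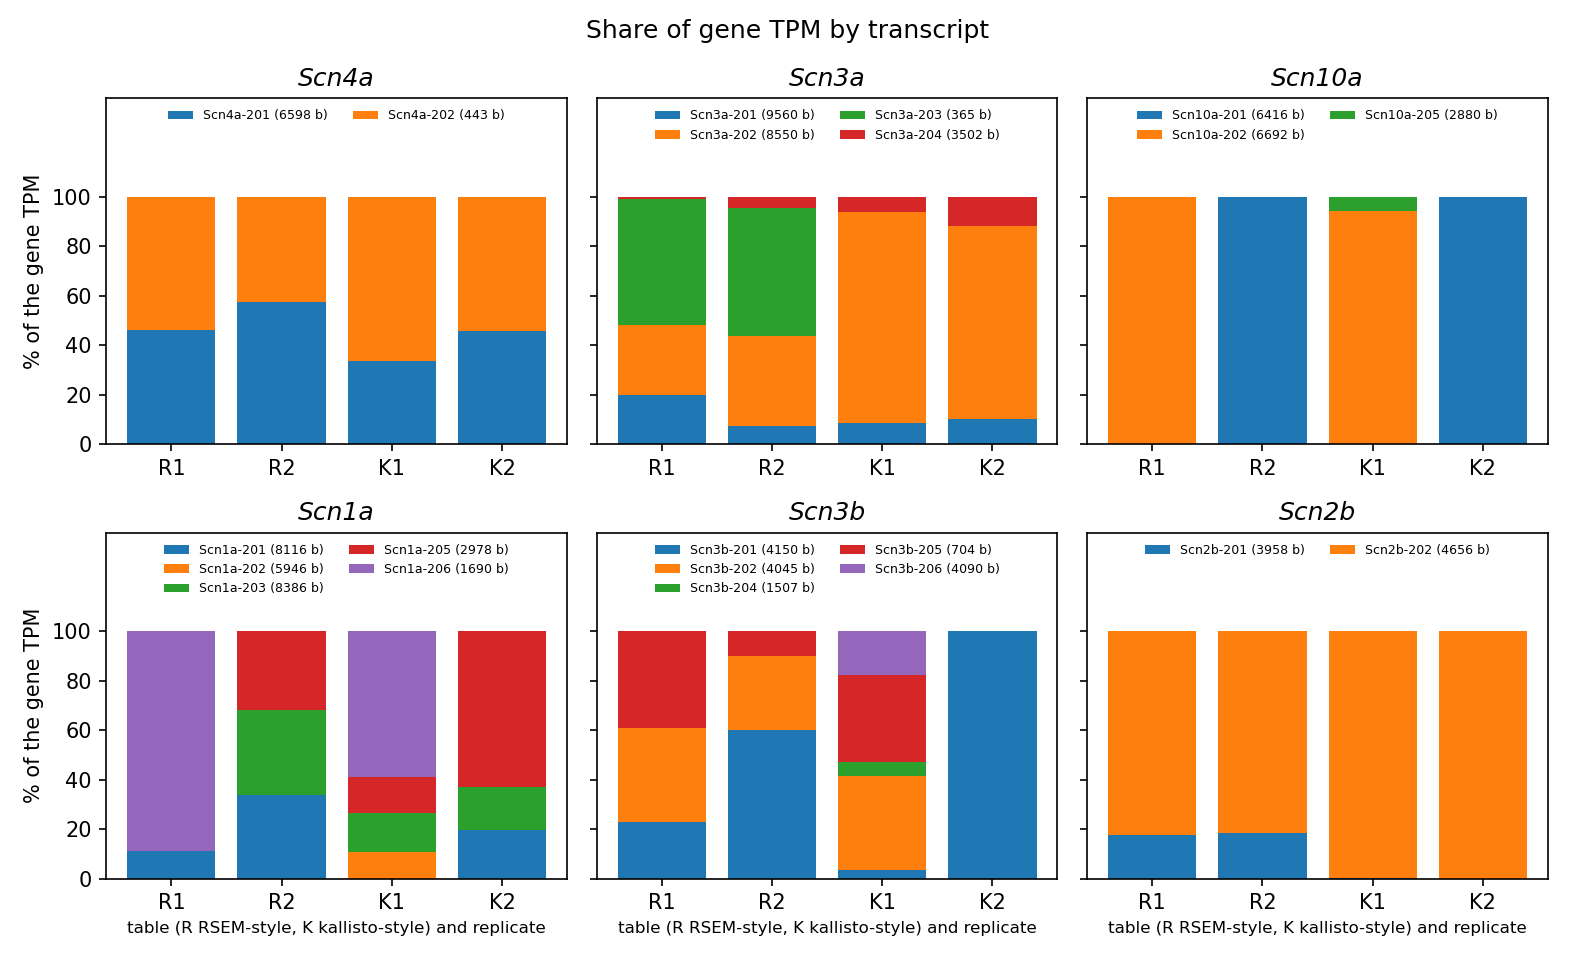
Percent of each gene's TPM by transcript, with transcript length in bases, for the 6 members with more than 1 transcript; R1 and R2 are the RSEM-style tables of replicates 1 and 2, K1 and K2 the kallisto-style ones. Scn3a-203 fills about 51% of the RSEM-style bars and 0% of the kallisto-style ones, and the bars of Scn10a change transcript between the replicates.

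Levels by the other table and by coding transcripts moved some members and left others. Scn7a was at 4.73 and 3.91 TPM in the kallisto-style tables, and Scn4a at 4.47 and 3.92, so that their ranges overlapped there. From coding transcripts alone in the same tables Scn4a was at 1.51 and 1.78 TPM, below both Scn7a values. Scn4b was at 0.210 and 0.810 TPM and Scn2b at 0.417 and 0.703, with the same library higher as before.

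**Figure D3:**
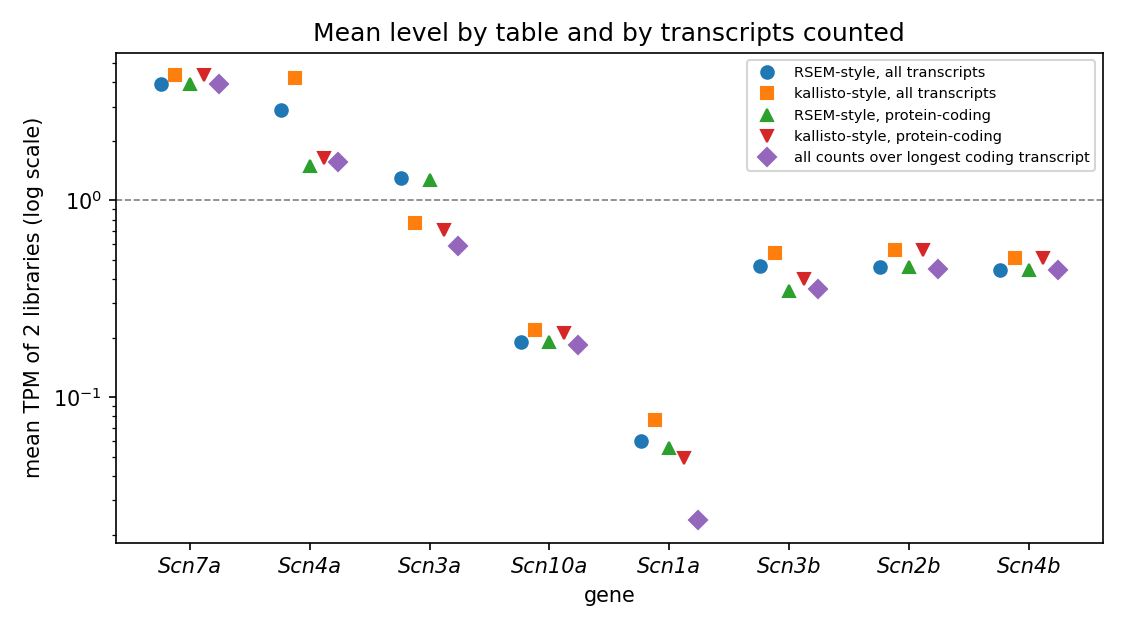
Mean TPM of the 2 libraries (log axis) for each member by table and by transcripts counted; the dashed line marks 1 TPM. Scn4a falls from 2.90 to 1.495 TPM when the noncoding model is left out, Scn3a is below the line in the kallisto-style tables, and the points of Scn7a, Scn10a, Scn2b and Scn4b lie close together.

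Genes on the opposite strand and shared sequence are given as values, and their part in the levels was not tested. Scn1a, Scn3a, Scn2b and Scn3b each overlap an annotated gene on the other strand. Gm13630, Gm13595 and Gm47266 had 0 counts in both libraries, and Gm10684, which overlaps Scn2b, had 0 and 1. On the same strand, words shared with transcripts of any other gene were most frequent for Scn3a (9.57%) and Scn1a (7.29%), and were at most 3.03% for the other members. Words shared with transcripts of other genes in antisense were at most 2.18%, for Scn2b, followed by 1.15% for Scn3a.

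The 2 replicates were then compared with each other, since they carry the same label. The comparison has 1 library on each side and no replicate check. Counts were scaled by the TMM method of edgeR, and a gene was called at a Benjamini-Hochberg adjusted p under 0.05 in a 2-sided exact binomial test with a ratio of at least 2-fold. Of 16611 genes tested, 411 were higher and 128 lower in replicate 2, or 3.24% in either direction. Of the 7 members tested, 1 was called, Scn4b, where higher calls made up 2.47% of all genes. No member was called lower, where lower calls made up 0.771%.

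Scn4b was 3.86-fold higher in replicate 2 (95% exact interval 2.53 to 6.09), from 27 counts in replicate 1 and 127 in replicate 2. Its log2 ratio was 1.95 with an adjusted p of 2.21e-11 by the exact binomial test, and 1.51% of tested genes had a ratio as large in either direction. With a coefficient of variation of 0.2 assumed between replicates, the exact test of edgeR still called it, at an adjusted p of 0.0119. Scn4b encodes the beta subunit bound to the pore by a disulfide bridge and known for the pore-plugging tail printed above.

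Scn2b, the other disulfide-linked beta gene and the neighbour of Scn4b, lay on the same side without passing the 2-fold rule. Its log2 ratio was 0.75 (95% exact interval 0.22 to 1.29), with an adjusted p of 0.0209 by the exact binomial test. Scn2b at chr9:45117782-45130070 and Scn4b at chr9:45138395-45154152 lie on the same strand, 8324 bases apart, with 0 annotated genes between them. Scn3b, also on chromosome 9 but not adjacent, had a log2 ratio of -0.02 (-0.62 to 0.59).

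Among pore genes, 0 of 4 tested were called, where 3.24% of all tested genes were. Scn7a had a log2 ratio of -0.34 (-0.48 to -0.21) with an adjusted p of 3.41e-06 by the exact binomial test, and Scn3a one of -0.46 (-0.76 to -0.15) with an adjusted p of 0.0141. Scn4a had a log2 ratio of 0.15 (-0.07 to 0.38) and Scn10a one of -0.25 (-0.91 to 0.42), so differences of this size were not detectable at their depth. In all, 4 of 7 members had an adjusted p under 0.05 at any ratio, where 22.1% of all tested genes did. With a coefficient of variation of 0.1 assumed, the exact test of edgeR gave adjusted p-values of 0.985 for Scn7a, 0.834 for Scn3a and 0.448 for Scn2b, and 3.41e-06 for Scn4b. The median log2 ratio was -0.02 over the 7 members and -0.00038 over all genes tested.

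**Figure D4:**
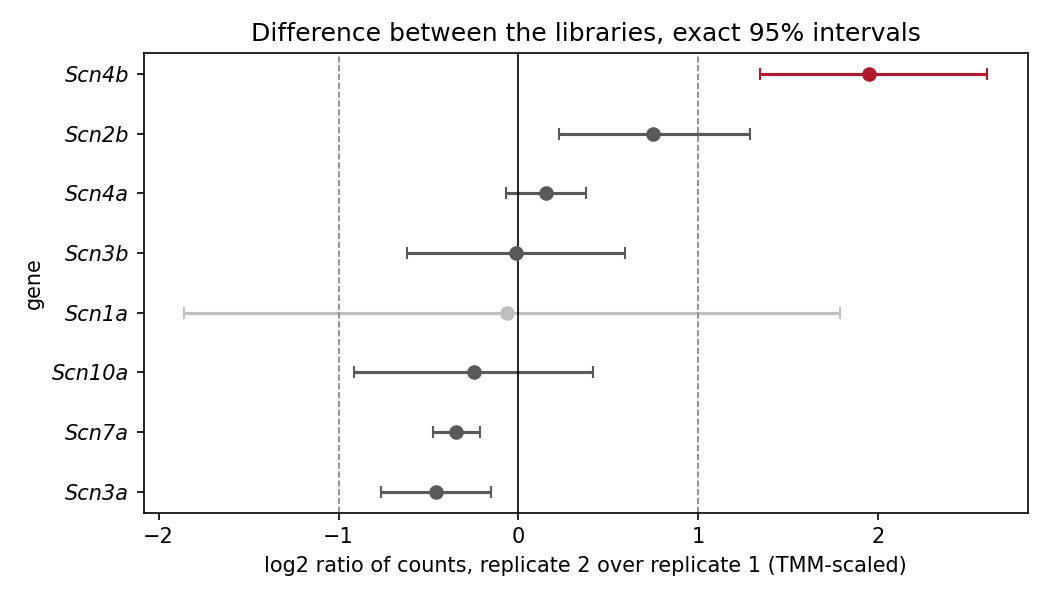
Log2 ratio of TMM-scaled counts, replicate 2 over replicate 1, with exact 95% intervals; dashed lines mark 2-fold, red the called member and pale grey Scn1a, which was not tested. Scn4b lies at 1.95 with its whole interval beyond 2-fold, and Scn2b lies at 0.75 with an interval that crosses the line.

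Other gene lists differed between the same libraries, and their values stand beside that of Scn4b. All lists were chosen with earlier results of these data known, so their counts describe the libraries and are no test. Over all tested genes, higher calls made up 2.47% and lower calls 0.771%. Of 12 thymus and T cell genes, 11 were tested and 11 were higher in replicate 2, and the summed level was 2.27 and 81.5 TPM. Among them Tcf7 stood at 0.62 and 18.6 TPM, Rag1 at 0.02 and 11.96 and Cd8a at 0.13 and 8.71. Rag2 and Ptcra were at 0 counts in replicate 1.

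Genes of the atria went the other way. Of 8 atrial markers, 7 were lower in replicate 2, and the summed level was 1664 and 526 TPM. Nppa, the atrial natriuretic peptide, stood at 840.9 and 242 TPM, Myl7 at 385 and 124.5 and Myl4 at 332 and 115. None had 0 counts.

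Of 12 genes of the conduction system, 2 were lower in replicate 2, and the summed level was 53.0 and 46.0 TPM. The highest of them, Gjc1, Cacna1g and Tbx3, stood at 16.4 ± 1.40, 11.7 ± 0.0636 and 6.26 ± 0.0849 TPM and were not called. Cpne5, at 2.08 and 0.95 TPM, and Vsnl1, at 0.42 and 0.12, were the lower ones.

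Across the other cell types compared 0 genes were called. The markers tested were 10 of heart muscle, 9 fibroblast, 9 Schwann cell, 7 endothelial, 8 smooth muscle, 4 neuronal and 4 skeletal muscle genes. Scn4b differed in the direction of the thymus list and against that of the atrial list. The part of either tissue in the difference of Scn4b was not tested.

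**Figure D5:**
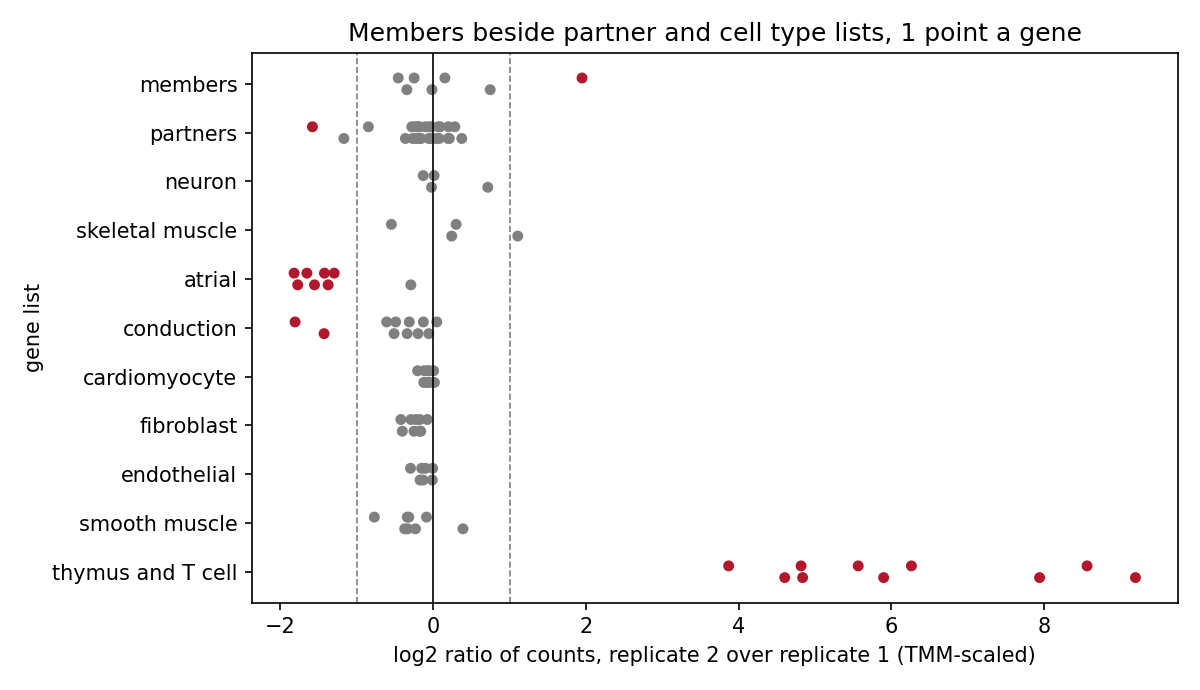
Log2 ratio of TMM-scaled counts, replicate 2 over replicate 1, 1 point for each tested gene of each list drawn, red where called and with dashed lines at 2-fold. Rag2, at 0 counts in replicate 1, has no finite ratio and is not drawn, and the Schwann cell list is left out. Scn4b is the red point among the members, atrial genes lie to the left and thymus and T cell genes to the right.

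Sodium channels work in complexes, and 29 genes for proteins that bind, place or modify them were described as a list. Of these, 23 were detected, with a median of 14.6 and 15.6 TPM, against 0.44 and 0.645 TPM over the 8 members. The highest was Nedd4, a ubiquitin ligase of the family that removes channels from the surface, at 172 ± 2.15 TPM. Slmap, a membrane-associated protein of the sarcolemma, stood at 115 ± 0.877 TPM.

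The kinase gene Camk2d stood at 63.4 ± 2.91 TPM, Cav3, the muscle caveolin, at 57.1 ± 4.53, and the kinase gene Sgk1 at 51.9 ± 4.89. No partner was at 0 counts in both libraries. Of 28 partners tested, 1 was called, where 3.24% of all tested genes were. Fgf12, a factor that binds the tail of pore subunits and shifts their inactivation, stood at 8.77 TPM in replicate 1 and 2.96 in replicate 2. Its log2 ratio was -1.58, in the direction of the atrial list and opposite to Scn4b. The median log2 ratio of the partners was -0.13.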

How the data were processed

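The members and all gene lists were chosen with earlier results of these data known. Other genes of the sodium channel family, some sequences and some genes of the partner and marker lists are not reported here, and list counts leave those genes out. Per the file headers, the authors deposited for each library TPM, its posterior mean, expected counts and each transcript's percent of its gene in tables with the column names of RSEM, and estimated counts and TPM in tables with the column names of kallisto; the versions are not stated there. The deposited interval bounds of TPM, another unit in these tables, were not used. According to the deposited readme, the reference was mm10 with GENCODE M21, whose annotation supplied symbols, coordinates and coding sequences. Protein tables were not used here, so identities were computed on translated GENCODE coding sequences and not on RefSeq proteins as planned. Identity is the percent of aligned positions that match in a global alignment, gaps left out.

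Expected counts were rounded for testing. Genes with at least 20 counts in total entered a 2-sided exact binomial test with TMM-scaled library sizes (edgeR 4.0.16, R 4.3.3) and Benjamini-Hochberg adjustment over all 16611. A quasi-likelihood test needs residual degrees of freedom, which 1 library a side does not leave. The test was tried on counts simulated with counting error alone, so the trial cannot show how it behaves where libraries differ by more than that. Intervals are exact at 95% (Poisson for counts, Clopper-Pearson for ratios) and cover counting error only, and reads are not independent molecules. Those of TPM and of TPM ratios keep the length of each gene fixed. They can be too narrow where a short transcript with few counts holds much of the TPM, as in Scn4a, Scn3a and Scn1a. Alternatives were DESeq2 1.42.0 size factors, total and spike-in scaling, other filters and the kallisto-style tables. Spike-ins took 0.517% and 0.531% of counts. Named genes were all members and 5 of the highest partners, the 3 highest markers of each list except those of fibroblasts, endothelium and smooth muscle, and some, not all, of the list genes called or at 0 counts.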

Additional observations from a re-analysis of the deposited data

How the results depend on the processing

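No paired analysis was possible because the 2 libraries belong to the same group. Levels as means of 2 libraries moved by more than 1 SD as follows. In kallisto-style tables Scn4a was at 4.19 TPM, Scn3a at 0.772 and Scn10a at 0.219. By posterior mean TPM, Scn1a was at 0.12, Scn10a at 0.355 and Scn3b at 0.89. From protein-coding transcripts alone, Scn4a was at 1.495 and Scn3b at 0.345 TPM in RSEM-style tables, and Scn4a at 1.65, Scn3a at 0.706 and Scn10a at 0.212 in kallisto-style ones. With all counts of a gene divided by its longest protein-coding transcript, chosen after seeing the data, Scn4a was at 1.57, Scn3a at 0.585 and Scn3b at 0.356 TPM. A mean of 2 values always lies within 1 SD of either value, so leaving out a library tests nothing for levels.

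At 0.1 TPM, 7 members were detected, and 3 in either library alone at 1 TPM. In kallisto-style TPM, 2 neighbouring pairs were apart in place of 4. The share of TPM was 39.6% for Scn4a-201 in kallisto-style tables against 51.8%, 0% for Scn3a-203 against 51.5%, and 99.9% for Scn2b-202 against 82.0%. Genes called between the libraries numbered 232 with at least 100 counts in total and 230 by the exact test of edgeR with a coefficient of variation of 0.2, against 539. All 54 member ratios under 8 alternatives stayed on their side of the 2-fold call; Scn3b, near 0, ranged from -0.26 to 0.03.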
